A study of Homo sapiens with 6 samples.

Results

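The 30 genes described here build the glycosylphosphatidylinositol (GPI) anchor, supply its mannose, attach and remodel it, or encode 2 of the proteins it holds at the cell surface. They were chosen by symbol, with GENCODE names (GRCh38) for the Ensembl identifiers of the deposited tables, and all 30 were found among the 19746 genes listed. All 30 were also among the 12756 genes abundant enough to be tested. The study knocked down PCYT2, the rate-limiting enzyme of ethanolamine-derived phosphatidylethanolamine (PE) synthesis, in SW480, an established line of human colorectal cancer cells, to look for genes downstream of it by RNA-Seq. Cells carried the control hairpin shNT (2 libraries), the PCYT2 hairpin shPcyt2-1 (2 libraries) or the PCYT2 hairpin shPcyt2-2 (2 libraries). The study's methods describe hairpins delivered by lentivirus, followed by puromycin selection of the infected cells, and do not say how many infections stand behind the libraries of a hairpin. No dose, time point or further treatment is given in the labels. Nothing says that libraries of a group came from separate cultures, so the p-values measure only the spread between these libraries, which may be technical. The values were read as FPKM (fragments scaled to gene length and library size), with TPM over part of the genes as a reading that cannot be told apart. The libraries listed between 18806 and 19209 genes, and the number of reads behind them is not known from these values.

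GPI anchors are glycolipids made on phosphatidylinositol in the endoplasmic reticulum. N-acetylglucosamine (GlcNAc) is added and deacetylated on the cytoplasmic face, the inositol is acylated, and mannoses are then added on the luminal face from dolichol phosphate mannose. PE donates the ethanolamine phosphate (EtNP) side groups, including the bridge on the third mannose through which a protein is attached. A transamidase joins the finished anchor to the C terminus of proteins such as the complement regulators CD55 and CD59, and remodeling enzymes trim the anchor on the way to the cell surface. Loss of PIGA in blood stem cells, which removes CD55 and CD59 from blood cells, is the cause of paroxysmal nocturnal hemoglobinuria. PCYT2 acts upstream of the PE that serves as EtNP donor.

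PCYT2 was at 11.6 and 13.8 FPKM in the shNT libraries, at 7.11 and 7.36 FPKM with shPcyt2-1 and at 6.71 and 6.18 FPKM with shPcyt2-2. Every knockdown library lay under both shNT libraries, in the direction that the labels give, and the mean was 0.57 of that of shNT with shPcyt2-1 and 0.508 with shPcyt2-2. These are bulk libraries, in which fewer cells with a transcript and less of it per cell cannot be told apart. Between the hairpins the log2 difference (shPcyt2-2 minus shPcyt2-1) was -0.15 (95% interval -0.37 to 0.08, limma adjusted p = 0.309). Of 10 colorectal epithelial markers, 9 reached 0.5 FPKM in at least 1 library. KRT8 was the most abundant of them, at 2730 to 3860 FPKM, EPCAM was at 258 to 312 FPKM, and KRT20, a marker of differentiated colonic cells, was at most at 0.095 FPKM. The summed epithelial markers were 6260 and 6550 FPKM with shPcyt2-2, below the 8210 to 8770 FPKM of the other 4 libraries, and the part of that gap in the results below was not tested. The sum was carried by the keratins KRT8, KRT18 and KRT19, whereas CDH1 (17.3 and 16.9 FPKM with shPcyt2-2, 14.7 to 15.4 FPKM in the others), VIL1 (44.7 and 41.3 FPKM, 38.8 to 39.7 FPKM in the others) and CDX1 (2.3 and 2.1 FPKM, 1.47 to 1.64 FPKM in the others) were highest with shPcyt2-2. CDX2 was lowest with shPcyt2-1 (9.88 FPKM in replicate 2 and close to it in replicate 1, 15.1 to 16.9 FPKM in the others), and LGALS4 was lower with shPcyt2-1 (0.573 and 1.02 FPKM) and shPcyt2-2 (1.19 and 0.971 FPKM) than with shNT (1.58 and 1.77 FPKM). Summed markers were 1.01 to 1.75 FPKM over the libraries for leukocytes and 0.513 to 0.769 FPKM for endothelial cells. The 4 fibroblast markers summed to 1.88 and 1.94 FPKM with shNT, 3.36 and 3.8 FPKM with shPcyt2-1 and 2.96 and 2.82 FPKM with shPcyt2-2. PIGF, PIGH, PIGN, PIGS, PIGT, PIGU and PGAP1 also show this order of groups without overlap. The share of all tested genes with the full order was not counted. Every knockdown library lay above both shNT libraries for 20.7% of all tested genes. Both shPcyt2-2 libraries lay below both shPcyt2-1 libraries for 36.5% of them. LUM was the highest of the fibroblast markers with shPcyt2-1. It was at 0.789 and 0.863 FPKM with shNT, 2.17 and 2.24 FPKM with shPcyt2-1 and 1.37 and 1.09 FPKM with shPcyt2-2. COL1A1, the highest with shNT and shPcyt2-2, was at no more than 1.68 FPKM and DCN at no more than 0.0586 FPKM. The defining fibroblast collagen COL3A1 and the leukocyte marker PTPRC were not listed in any library, where only values above 0 are listed, and the part of the fibroblast sum in the results below was not tested. None of the 13 mitochondrial protein-coding genes was listed either, so a gene that is not listed cannot be read as not expressed.

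With shNT, the levels of the 30 genes spanned 0.931 FPKM for PGAP1 to 55.1 FPKM for PIGT. Their median was 7.48 FPKM, beside 6.89 FPKM over all tested genes, and 91.2% of the tested genes had a lower shNT mean than PIGT. PIGT (55.1 ± 1.88 FPKM, SD, n = 2), a transamidase subunit, was followed by the subunits of dolichol phosphate mannose synthase, DPM3 (49.5 ± 0.995 FPKM, SD, n = 2), DPM1 (49.0 ± 2.29 FPKM, SD, n = 2) and DPM2 (33.5 ± 1.06 FPKM, SD, n = 2). DPM3 and DPM1 did not differ beyond the spread between libraries. At the low end stood PIGB (1.38 ± 0.137 FPKM, SD, n = 2), the mannosyltransferase for the third mannose, and the remodeling genes MPPE1 (1.23 ± 0.13 FPKM, SD, n = 2) and PGAP1 (0.931 ± 0.25 FPKM, SD, n = 2). Subunits of 1 complex were thus far apart: within the transamidase, PIGK, its catalytic subunit, had an shNT mean of 2.45 FPKM beside 55.1 FPKM for PIGT. GENCODE names pseudogenes of 8 of the 30 genes, none of them listed in the tables, and how reads shared with them were counted is not given in the sources used here.

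With shPcyt2-1, 12 of the 30 genes changed against shNT, 11 of them upward. The rises were in GlcNAc transfer (PIGH, PIGA), EtNP transfer (PIGF, PIGO), the transamidase (PIGT, PIGS, PIGU), remodeling (PGAP1, PGAP2) and dolichol phosphate mannose synthase (DPM1, DPM2), and the anchored protein CD55 fell. The largest rises in mean FPKM were 1.79-fold for PIGA, 1.7-fold for PGAP1 and 1.65-fold for PIGH. On the log2 scale used for the test PIGH rose most (0.68), with PIGA at 0.63 and PGAP1 at 0.43. Without shNT replicate 2 the log2 fold changes were 0.44 for PIGA and 0.29 for PGAP1, beside 0.69 for PIGH. With shPcyt2-2 none of the 30 passed the test. A gene was called at a limma adjusted p under 0.05 over all tested genes, on log2(FPKM + 1), a scale that understates the change of low genes. In shPcyt2-1 against shNT, 26.7% of all tested genes were called, 16.5% higher and 10.1% lower, beside 40.0% of the 30 genes called, 36.7% higher and 3.33% lower. With shPcyt2-2, 12.4% of all tested genes were called and 0 of the 30, of which 8 (26.7%) had an unadjusted p under 0.05 beside 31.1% of all tested genes. With shPcyt2-2, 7.69% of all tested genes were called higher and 4.74% lower. At an unadjusted limma p under 0.05 there were 18 of the 30 (60.0%) with shPcyt2-1, beside 40.9% of all tested genes. Both shPcyt2-1 libraries lay above both shNT libraries for 18 of the 30 (60.0%, beside 43.3%) and below for 3 (beside 25.6%), and the shPcyt2-2 libraries lay above for 10 (33.3%, beside 35.1%) and below for 3 (beside 22.4%). The median log2 fold change of the 30 was 0.24 with shPcyt2-1 (all tested genes, 0.067), while shPcyt2-2 gave 0.081 (all tested genes, 0.044). Both comparisons share the shNT libraries, so they are not independent.

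Calls with shPcyt2-1 were lost when single libraries of shNT or shPcyt2-1 were left out, among the 30 as among all tested genes. Such a fit leaves 1 library in a group, which weakens the test even where the estimate does not move. PIGU stayed at 0.36 without shPcyt2-1 replicate 1 and 0.35 without replicate 2, beside 0.36 in the main fit. PGAP1 moved from 0.43 to 0.29 without shNT replicate 2. Leaving out shPcyt2-1 replicate 1 left 4 of the 12 (PIGA, PIGF, PIGH and PIGT), leaving out shPcyt2-1 replicate 2 left 6 and leaving out shNT replicate 2 left 8. The share of all tested genes called fell as well, from 26.7% to 9.1%, 14.5% and 13.6% in the same order, with the lone library of the group then assumed to vary like the others. PIGF, PIGH and PIGT were called under all 16 alternative settings. Median-ratio scaling of the libraries lowered the median over all tested genes to -0.002 and that of the 30 to 0.16, with 9 called higher and 2 lower among the 30, beside 10.9% and 14.0% of all tested genes, and moved the share of higher genes among all calls from 62.0% to 43.9% with shPcyt2-1 and from 61.9% to 46.2% with shPcyt2-2. With no filter on low values 7 of the 30 were called with shPcyt2-1 (23.3%, beside 9.27% of all genes), and PIGA, PIGO, PGAP1, DPM1 and CD55 were not among them. Correction for GC content and gene length left 10 called with shPcyt2-1 (33.3%, beside 27.6% of all tested genes) and turned the median of the 30 with shPcyt2-2 to -0.0056.

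**Figure D1:**
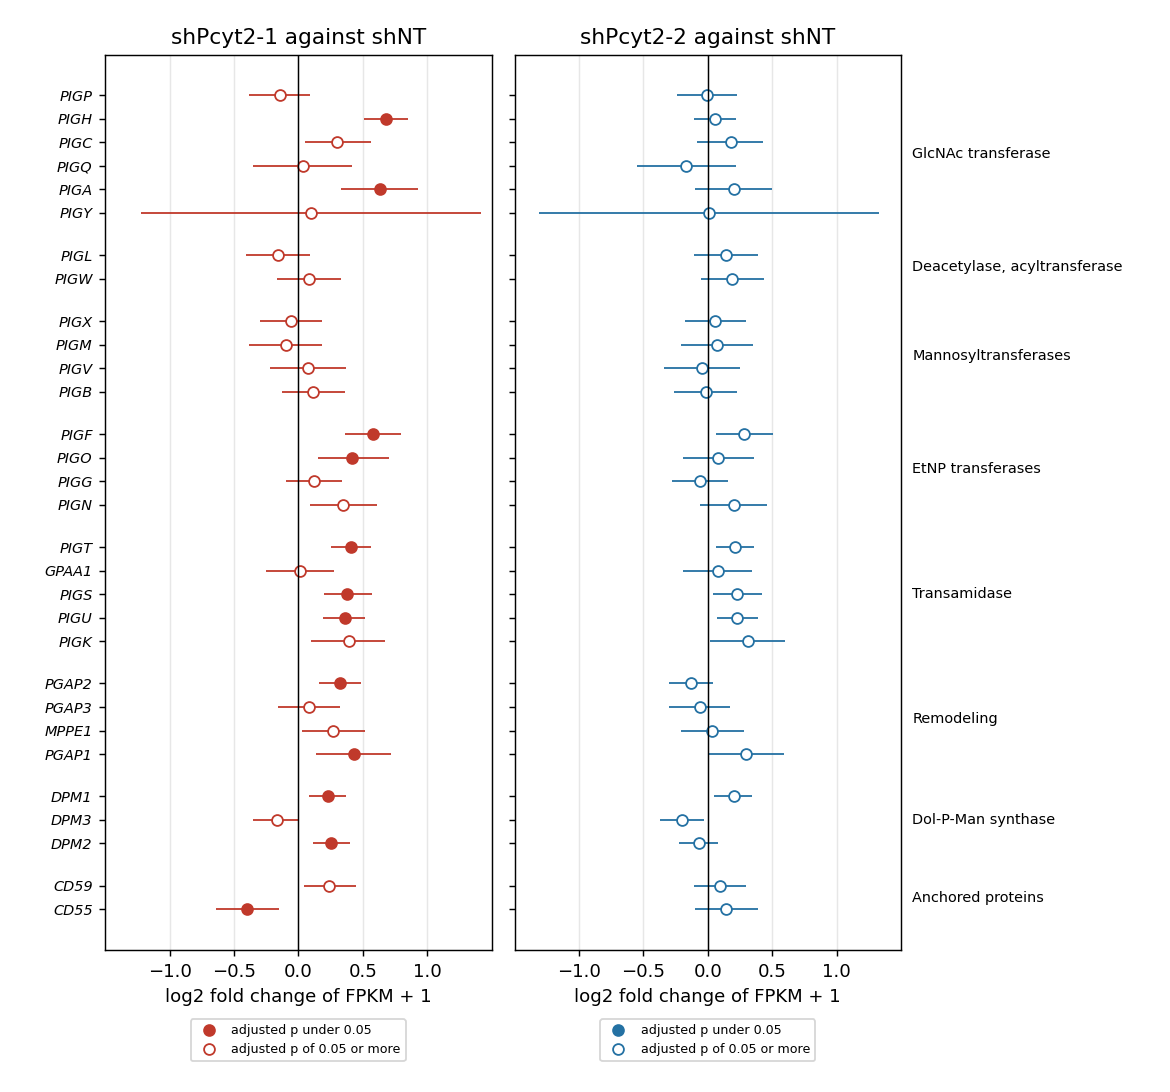
Log2 fold change of FPKM + 1 against shNT for each of the 30 genes, with shPcyt2-1 at the left and shPcyt2-2 at the right. Points are limma estimates, lines their 95% intervals, and filled points mark a limma adjusted p under 0.05, which holds for 12 genes with shPcyt2-1 and 0 with shPcyt2-2.

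RefSeq's promoter table (GRCh38.p14) held 25 of the 30 genes, and no entry was matched for PIGF, PIGG, PIGH, PIGY and GPAA1. The upstream 250 bases are shown for 4 genes that were called higher with shPcyt2-1 and whose window holds at most 30 annotated exonic bases: PIGA at chrX:15335555-15335804, PIGU at chr20:34677093-34677342, PIGO at chr9:35096592-35096841 and DPM1 at chr20:50958533-50958782, all on the minus strand. The window of PIGU lies in the annotated gene but holds 0 exonic bases, and the others touch the annotated gene by 10 to 26 exonic bases. Capitals mark the letters of a motif on either strand.
PIGA: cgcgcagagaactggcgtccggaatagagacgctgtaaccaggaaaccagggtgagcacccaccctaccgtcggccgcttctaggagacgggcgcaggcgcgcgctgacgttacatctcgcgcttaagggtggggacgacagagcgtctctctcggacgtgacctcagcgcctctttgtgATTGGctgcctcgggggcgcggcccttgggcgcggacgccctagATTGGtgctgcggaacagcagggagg
PIGU: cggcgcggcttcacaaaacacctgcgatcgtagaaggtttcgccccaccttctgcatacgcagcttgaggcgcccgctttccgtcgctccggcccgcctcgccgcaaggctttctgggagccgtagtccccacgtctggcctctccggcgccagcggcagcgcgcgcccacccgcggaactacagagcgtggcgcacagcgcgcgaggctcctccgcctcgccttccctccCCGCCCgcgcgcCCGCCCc
PIGO: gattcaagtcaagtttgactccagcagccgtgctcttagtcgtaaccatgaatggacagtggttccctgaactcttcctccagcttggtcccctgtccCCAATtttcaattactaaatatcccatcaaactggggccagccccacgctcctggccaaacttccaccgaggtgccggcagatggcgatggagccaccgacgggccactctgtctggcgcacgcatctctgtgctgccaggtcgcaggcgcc
DPM1: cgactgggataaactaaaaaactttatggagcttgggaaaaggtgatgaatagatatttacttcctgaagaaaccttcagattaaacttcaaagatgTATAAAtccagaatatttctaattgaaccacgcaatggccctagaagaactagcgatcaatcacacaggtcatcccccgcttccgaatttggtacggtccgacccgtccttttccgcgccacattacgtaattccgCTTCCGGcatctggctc
The motifs searched, on both strands and with none contained in another, were the CCAAT box (CCAAT), the GC box (GGGCGG), the E-box (CACGTG), the TATA box (TATAAA), an ETS motif (CCGGAAG), the cAMP response element (TGACGTCA), the palindromic NRF1 motif and an unfolded protein response motif (TGACGTGG). PIGA has CCAAT boxes 70 and 26 bases before the start, PIGU has GC boxes at 19 and 7 bases, PIGO has a CCAAT box at 152 bases, and DPM1 has a TATA box motif at 153 bases and an ETS motif at 17 bases. Among the 25 windows, CCAAT was present in 7 (28.0%) and in 32.0% of all windows of this length, GGGCGG in 12 (48.0%) and in 42.5%, CCGGAAG in 7 (28.0%) and in 8.48%, TATAAA in 1 and in 10.8%, and TGACGTCA in 1 and in 1.63%. The letters of CACGTG, the NRF1 motif and TGACGTGG were in none of the 25, and in 6.32%, 1.02% and 0.615% of all windows. The genes with CCGGAAG were DPM1, DPM2, DPM3, PGAP3, PIGB, PIGC and PIGL. Of these 7, DPM1 and DPM2 were called with shPcyt2-1, beside 26.7% of all tested genes, and a link between motif and call was not tested. GC content was higher in these windows, with a median of 63.6% beside 58.0% over all windows.

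GlcNAc transfer, the first step of the pathway, is carried out by a complex with PIGA as catalytic subunit and PIGC, PIGH, PIGP, PIGQ and PIGY as partners. Of these 6, PIGH and PIGA rose with shPcyt2-1, beside 16.5% of all tested genes called higher. PIGH (ENSG00000100564, chromosome 14, 67581955 to 67600287) was at 12.4 and 12.6 FPKM in the shNT libraries, 21.0 and 20.4 FPKM with shPcyt2-1, and 13.3 and 12.8 FPKM with shPcyt2-2. Its shPcyt2-1 libraries stood apart from the other 4, which lay within 1 FPKM of each other. The log2 fold change of PIGH was 0.68 with shPcyt2-1 (standard error 0.074, limma adjusted p = 0.000937), while shPcyt2-2 gave 0.053 (95% interval -0.11 to 0.22, limma adjusted p = 0.66). PIGH shares 19.1% of its exonic bases with PLEKHH1 on the opposite strand, and whether counting used strand is not given in the sources used here. PLEKHH1 itself was at 2.29 and 2.19 FPKM with shNT and at 1.72 and 1.66 FPKM with shPcyt2-1 (log2 fold change -0.27, limma adjusted p = 0.0804).

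PIGA (ENSG00000165195, chromosome X, 15319451 to 15335580), whose upstream bases are given above, was at 2.44 and 1.64 FPKM with shNT, 3.64 and 3.68 FPKM with shPcyt2-1 and 2.57 and 2.35 FPKM with shPcyt2-2. Both shPcyt2-1 libraries were above all others, while shPcyt2-2 overlapped shNT. The log2 fold change of PIGA was 0.63 with shPcyt2-1 (standard error 0.133, limma adjusted p = 0.0106), while shPcyt2-2 gave 0.2 (limma adjusted p = 0.337). Without shNT replicate 2 the call of PIGA with shPcyt2-1 was lost (limma adjusted p = 0.0576). For PIGC the shPcyt2-1 libraries (12.5 and 12.3 FPKM) were above shNT (9.99 and 9.73 FPKM), by 0.3 on the log2 scale (limma adjusted p = 0.0734). A fit of shNT and shPcyt2-1 alone called PIGC (limma adjusted p = 0.0299). PIGP was at 16.1 and 17.9 FPKM with shNT and between 13.8 and 17.6 FPKM in the knockdown libraries, and PIGQ at 6.6 and 8.78 FPKM with shNT and between 5.63 and 8.85 FPKM, so both overlapped shNT. PIGY, listed between 0.0981 and 3.91 FPKM, lies wholly within the exons of PYURF on the same strand, and its value is uncertain.

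The next enzymes, the deacetylase PIGL and the inositol acyltransferase PIGW, and the mannosyltransferases PIGM, PIGX, PIGV and PIGB showed no call with either hairpin. Of all tested genes, 26.7% were called with shPcyt2-1 and 12.4% with shPcyt2-2. PIGL was at 4.81 and 4.55 FPKM with shNT, 4.06 and 4.1 FPKM with shPcyt2-1, below both shNT libraries, and 4.7 and 5.87 FPKM with shPcyt2-2, which overlapped them. PIGW was at 2.77 and 2.4 FPKM with shNT and between 2.72 and 3.34 FPKM in the knockdown libraries. On the opposite strand, PIGW shares 20.8% of its exonic bases with MYO19, which was at 11.3 and 12.2 FPKM with shNT. PIGL shares 5.21% with NCOR1, which was called lower with shPcyt2-1 (log2 fold change -0.35, limma adjusted p = 0.0171). The part of these overlaps was not tested. For the mannosyltransferases, PIGM and its stabilizing partner PIGX, PIGV and PIGB, the log2 fold changes lay between -0.1 and 0.11 with shPcyt2-1 and between -0.043 and 0.07 with shPcyt2-2, and the 95% intervals of all 4 with shPcyt2-1 lay between -0.38 and 0.37. The median over these 4 was 0.01 with shPcyt2-1 and 0.02 with shPcyt2-2. The 0.68 of PIGH with shPcyt2-1 lies outside these intervals on the log2(FPKM + 1) scale. The same ratio of FPKM would read lower on that scale for these less abundant genes.

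EtNP transfer is the step that draws on PE. PIGN adds the group to the first mannose, PIGO to the third and PIGG to the second, and PIGF is the shared partner of PIGO and PIGG. Of the 4, PIGF and PIGO rose with shPcyt2-1, beside 16.5% of all tested genes. The median log2 fold change of the 4 was 0.38 with shPcyt2-1 and 0.14 with shPcyt2-2, beside 0.067 and 0.044 over all tested genes. In the same order, the medians were 0.38 and 0.23 for the transamidase and 0.3 and -0.01 for remodeling. They were 0.2 and 0.03 for GlcNAc transfer and 0.23 and -0.07 for dolichol phosphate mannose synthase. The mannosyltransferases had 0.01 and 0.02, PIGL with PIGW -0.04 and 0.16, and the anchored proteins -0.08 and 0.12. PIGF (ENSG00000151665, chromosome 2, 46580937 to 46617119) was at 8.42 and 7.66 FPKM with shNT, 13.3 and 11.7 FPKM with shPcyt2-1 and 9.44 and 10.6 FPKM with shPcyt2-2. All 4 knockdown libraries of PIGF were above shNT, with those of shPcyt2-1 highest. The log2 fold change was 0.58 with shPcyt2-1 (standard error 0.0991, limma adjusted p = 0.00456), while shPcyt2-2 gave 0.28 (95% interval 0.06 to 0.51, limma adjusted p = 0.0892). PIGF shares 12.2% of its exonic bases with CRIPT on the opposite strand, whose log2 fold change with shPcyt2-1 was 0.43 (limma adjusted p = 0.0403), and 13.2% with RHOQ (0.11, limma adjusted p = 0.417), and the part of these overlaps was not tested.

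PIGO (ENSG00000165282, chromosome 9, 35088688 to 35096601) was at 7.27 and 8.22 FPKM with shNT, 10.6 and 10.8 FPKM with shPcyt2-1 and 9.46 and 7.18 FPKM with shPcyt2-2. Only the shPcyt2-1 libraries lay wholly above shNT. The log2 fold change with shPcyt2-1 was 0.42 (standard error 0.122, limma adjusted p = 0.0335), and with shPcyt2-2 it was 0.082 (limma adjusted p = 0.681). Without any 1 of the 4 libraries of shNT and shPcyt2-1, the call of PIGO was lost (limma adjusted p between 0.0602 and 0.124). PIGN was at 2.42 and 2.07 FPKM with shNT and between 2.45 and 3.16 FPKM in the knockdown libraries, all of them above shNT, and its log2 fold change was 0.35 for shPcyt2-1 (limma adjusted p = 0.0536), while shPcyt2-2 gave 0.2 (limma adjusted p = 0.271). With shPcyt2-1, PIGN was called with the replicate block (limma adjusted p = 0.0384) and with no variance trend (limma adjusted p = 0.0468). A fit of shNT and shPcyt2-1 alone also called PIGN (limma adjusted p = 0.0445). PIGG was at 4.19 and 4.38 FPKM with shNT, 4.84 and 4.63 FPKM with shPcyt2-1 and 4.29 and 3.86 FPKM with shPcyt2-2, and its log2 fold change was 0.12 for shPcyt2-1 (limma adjusted p = 0.389), while shPcyt2-2 gave -0.06 (limma adjusted p = 0.708).

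The transamidase consists of the catalytic subunit PIGK with GPAA1, PIGS, PIGT and PIGU. PIGT, PIGS and PIGU rose by similar amounts with shPcyt2-1, where 16.5% of all tested genes were called higher. PIGK and GPAA1 were not called. PIGT (ENSG00000124155, chromosome 20, 45416067 to 45456934) was at 53.8 and 56.4 FPKM with shNT, 74.2 and 72.3 FPKM with shPcyt2-1 and 66.7 and 61.2 FPKM with shPcyt2-2. PIGS was at 16.5 and 18.0 FPKM with shNT, 23.9 and 21.7 FPKM with shPcyt2-1 and 21.0 and 19.8 FPKM with shPcyt2-2. For PIGU the values were 15.0 and 14.6 FPKM, 19.2 and 19.3 FPKM, and 17.7 and 17.4 FPKM in the same order. In each of these 3 genes the groups did not overlap and stood in 1 order, shNT lowest, shPcyt2-2 between and shPcyt2-1 highest. The share of all tested genes in this order was not counted. Every knockdown library lay above both shNT libraries for 20.7% of all tested genes. Both shPcyt2-2 libraries lay below both shPcyt2-1 libraries for 36.5% of them. The log2 fold changes with shPcyt2-1 were 0.41 for PIGT (limma adjusted p = 0.00398), 0.38 for PIGS (limma adjusted p = 0.0113) and 0.36 for PIGU (limma adjusted p = 0.00854), with standard errors of 0.0665, 0.0826 and 0.0712. With shPcyt2-2 they were 0.21 for PIGT (limma adjusted p = 0.0677), 0.23 for PIGS (limma adjusted p = 0.0969) and 0.23 for PIGU (limma adjusted p = 0.0662), none of them past the threshold.

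PIGK was at 2.79 and 2.11 FPKM with shNT, 3.66 and 3.31 FPKM with shPcyt2-1 and 3.53 and 2.99 FPKM with shPcyt2-2, and its log2 fold change was 0.39 for shPcyt2-1 (limma adjusted p = 0.0515), while shPcyt2-2 gave 0.31 (limma adjusted p = 0.134). With shPcyt2-1, PIGK was called higher with the replicate block (limma adjusted p = 0.0216) and at a mean of at least 1 (limma adjusted p = 0.0472). Block and median-ratio scaling together also gave a call of PIGK (limma adjusted p = 0.0392). Correction for GC content and gene length brought PIGK to 0.16 with shPcyt2-1 (limma adjusted p = 0.172). GPAA1 was at 19.6 and 25.3 FPKM with shNT, 23.4 and 21.7 FPKM with shPcyt2-1 and 25.2 and 22.1 FPKM with shPcyt2-2, so every group overlapped the others. Its log2 fold change was 0.012 with shPcyt2-1 (95% interval -0.25 to 0.28), and it turned to -0.068 with median-ratio scaling. The spread between the shNT libraries was wider for GPAA1 (SD 4.06 FPKM) than for PIGS (SD 1.06 FPKM) or PIGU (SD 0.288 FPKM). The call of PIGS was lost without shPcyt2-1 replicate 1 (limma adjusted p = 0.105), and that of PIGU without shPcyt2-1 replicate 1 (limma adjusted p = 0.0658) or replicate 2 (limma adjusted p = 0.0553).

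**Figure D2:**
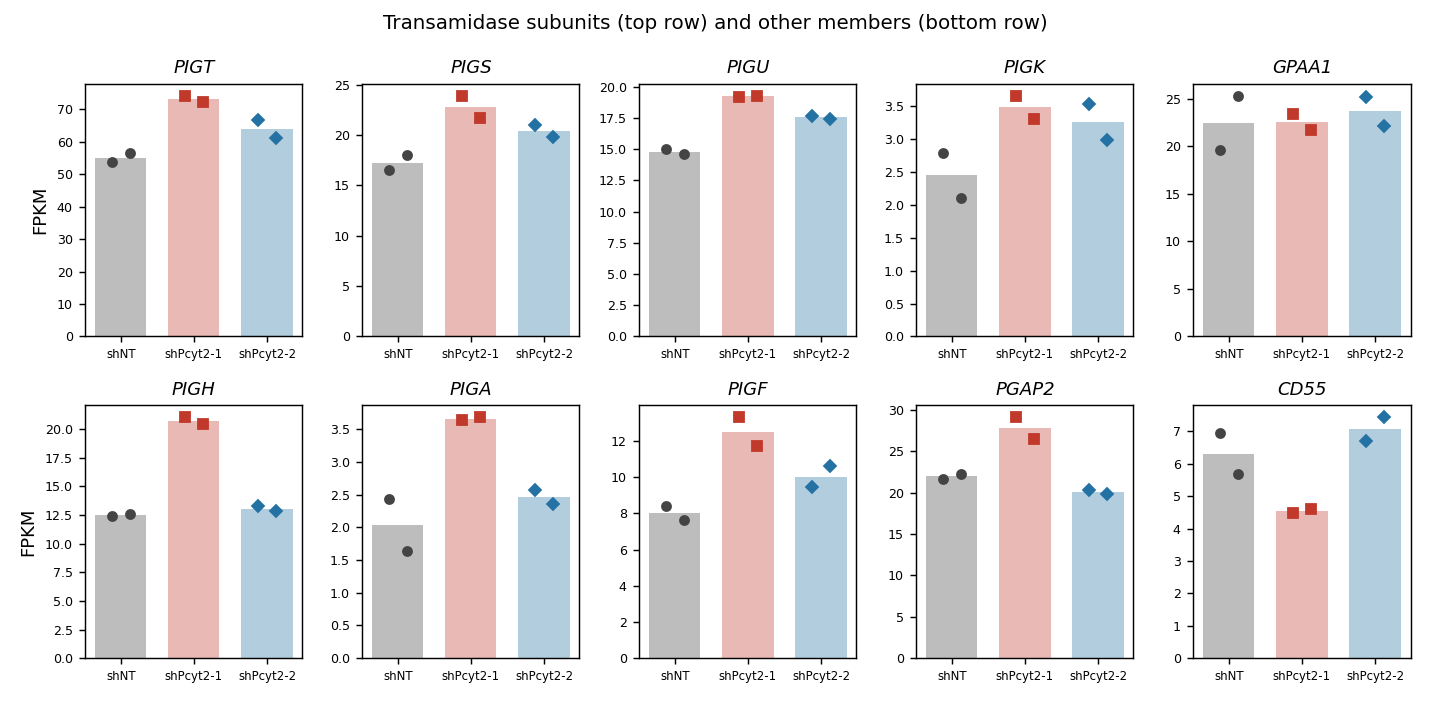
FPKM per library for the 5 transamidase subunits (top row) and for PIGH, PIGA, PIGF, PGAP2 and CD55 (bottom row), with bars at the mean of 2 libraries, points for the libraries and every axis starting at 0. PIGT, PIGS, PIGU, PIGF and PIGH step down from shPcyt2-1 to shPcyt2-2 to shNT, with PIGH at 20.7 FPKM with shPcyt2-1 and 13.0 FPKM with shPcyt2-2, and PGAP2 is lowest with shPcyt2-2.

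Remodeling begins with the inositol deacylase PGAP1 and the EtNP phosphodiesterase MPPE1 in the endoplasmic reticulum and ends with the exchange of a fatty acid by PGAP3 and PGAP2 in the Golgi. PGAP2 (ENSG00000148985, chromosome 11, 3797724 to 3826371) was at 21.7 and 22.3 FPKM with shNT, 29.1 and 26.5 FPKM with shPcyt2-1 and 20.3 and 19.8 FPKM with shPcyt2-2. The shPcyt2-1 libraries were wholly above shNT and the shPcyt2-2 libraries wholly below it. The log2 fold change of PGAP2 was 0.32 with shPcyt2-1 (standard error 0.0741, limma adjusted p = 0.0145), while shPcyt2-2 gave -0.13 (limma adjusted p = 0.269). Without shPcyt2-1 replicate 1 the rise of PGAP2 was no longer called (limma adjusted p = 0.153). PGAP1, the least abundant of the 30, was at 1.11 and 0.754 FPKM with shNT, 1.57 and 1.6 FPKM with shPcyt2-1 and 1.56 and 1.2 FPKM with shPcyt2-2, all 4 knockdown libraries above shNT. Its log2 fold change with shPcyt2-1 was 0.43 (standard error 0.129, limma adjusted p = 0.0382), a call lost without shNT replicate 2 or either shPcyt2-1 library (limma adjusted p between 0.118 and 0.213) and after correction for GC content and gene length (limma adjusted p = 0.135). MPPE1 (1.13 to 1.83 FPKM over the libraries) and PGAP3 (2.64 to 3.19 FPKM) were not called with either hairpin. On the opposite strand, MPPE1 shares 29.6% of its exonic bases with GNAL and PGAP3 shares 5.29% with ERBB2.

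Dolichol phosphate mannose synthase makes the mannose donor, with DPM1 as catalytic subunit and DPM2 and DPM3 as membrane partners, and it also serves other kinds of glycosylation. DPM1 and DPM2 rose with shPcyt2-1, beside 16.5% of all tested genes called higher, and DPM3 was not called. DPM1 was at 50.6 and 47.3 FPKM with shNT, 56.4 and 58.6 FPKM with shPcyt2-1 and 56.0 and 56.5 FPKM with shPcyt2-2, all 4 knockdown libraries above shNT. DPM2 was at 32.8 and 34.3 FPKM with shNT, 40.4 and 39.8 FPKM with shPcyt2-1 and 32.5 and 31.3 FPKM with shPcyt2-2, high with shPcyt2-1 alone. DPM3 was at 50.2 and 48.8 FPKM with shNT, 46.7 and 41.1 FPKM with shPcyt2-1 and 44.3 and 41.8 FPKM with shPcyt2-2, all 4 knockdown libraries below shNT, and it was the only 1 of the 30 with that pattern. With shPcyt2-1 the log2 fold changes were 0.23 for DPM1 (limma adjusted p = 0.0293), 0.25 for DPM2 (limma adjusted p = 0.0224) and -0.17 for DPM3 (limma adjusted p = 0.121). With shPcyt2-2 they were 0.2 for DPM1 (limma adjusted p = 0.0739), -0.07 for DPM2 (limma adjusted p = 0.5) and -0.2 for DPM3 (limma adjusted p = 0.115). The calls of DPM1 and DPM2 were lost with median-ratio scaling (limma adjusted p of 0.16 and 0.0833), under which DPM3 was called lower with shPcyt2-1 (-0.25, limma adjusted p = 0.0356). Correction for GC content and gene length brought DPM1 to 0.03 (limma adjusted p = 0.754). They were also lost without either shPcyt2-1 library (limma adjusted p between 0.101 and 0.177), DPM1 without shNT replicate 2 (limma adjusted p = 0.0994) and DPM2 without shNT replicate 1 (limma adjusted p = 0.0556). DPM2 shares 19.2% of its exonic bases with an antisense gene, AL157935.1.

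Of the 2 anchored proteins, CD55, which speeds the decay of complement convertases, fell with shPcyt2-1. CD59, which blocks the membrane attack complex, was not called. With shPcyt2-1, 10.1% of all tested genes were called lower. CD55 (ENSG00000196352, chromosome 1, 207321376 to 207386804) was at 6.94 and 5.68 FPKM with shNT, 4.48 and 4.59 FPKM with shPcyt2-1 and 6.69 and 7.43 FPKM with shPcyt2-2. The shPcyt2-1 libraries were the lowest, and shPcyt2-2 overlapped shNT. The log2 fold change of CD55 was -0.4 with shPcyt2-1 (standard error 0.109, limma adjusted p = 0.0283), while shPcyt2-2 gave 0.14 (limma adjusted p = 0.4). Without shNT replicate 1 or either shPcyt2-1 library the fall of CD55 was not called (limma adjusted p between 0.087 and 0.132). CD59 was at 9.67 and 8.64 FPKM with shNT, 10.8 and 11.3 FPKM with shPcyt2-1 and 10.2 and 9.46 FPKM with shPcyt2-2, and shPcyt2-1 differed from shNT by 0.24 on the log2 scale (limma adjusted p = 0.0736). These values are of transcripts and say nothing of the amount of either protein at the cell surface.

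The hairpins themselves were compared next. Of the 30 genes, 5 (16.7%) differed between shPcyt2-2 and shPcyt2-1, beside 27.1% of all tested genes. PIGH, PGAP2, PIGA and DPM2 were lower with shPcyt2-2 than with shPcyt2-1 (13.3% of the 30, beside 14.2% of all tested genes), and CD55 was higher (3.33%, beside 12.9%). The log2 differences, shPcyt2-2 minus shPcyt2-1, were -0.63 for PIGH (95% interval -0.79 to -0.46, limma adjusted p = 0.000612), -0.45 for PGAP2 (limma adjusted p = 0.00285) and -0.43 for PIGA (limma adjusted p = 0.0407). For DPM2 the difference was -0.32 (limma adjusted p = 0.00731), and for CD55 it was 0.54 (95% interval 0.29 to 0.79, limma adjusted p = 0.00731). At an unadjusted limma p under 0.05 there were 9 of the 30, beside 40.2% of all tested genes. Both shPcyt2-2 libraries lay below both shPcyt2-1 libraries for 16 of the 30 (53.3%, beside 36.5%) and above for 3, CD55, PIGL and PIGW (beside 30.7%). In the main fit no other of the 30 genes had a tested difference past the threshold, and the transamidase subunits had differences from -0.19 for PIGT (95% interval -0.34 to -0.04, limma adjusted p = 0.0588) to 0.067 for GPAA1. After correction for GC content and gene length, PIGT (-0.18, limma adjusted p = 0.0182), PIGO (-0.35, limma adjusted p = 0.0268) and PIGL (0.37, limma adjusted p = 0.0312) also passed. A fit of the knockdown libraries alone also called PIGT (limma adjusted p = 0.0411) and PIGF (limma adjusted p = 0.0489). PIGF also passed at a mean of at least 1 (limma adjusted p = 0.0492). PIGH and PGAP2 differed between the hairpins under all 16 alternative settings. The difference of PIGA was lost without any 1 of the 4 knockdown libraries (limma adjusted p between 0.0926 and 0.153), at a pseudocount of 0.1 (limma adjusted p = 0.0526) and with no filter on low values (limma adjusted p = 0.133), that of DPM2 without shPcyt2-1 replicate 1 (limma adjusted p = 0.063) or shPcyt2-2 replicate 2 (limma adjusted p = 0.0501), and that of CD55 without shPcyt2-2 replicate 2 (limma adjusted p = 0.0513).

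With all 4 knockdown libraries set against shNT, 0 of the 30 genes passed the test, beside 0.00784% of all tested genes (1 gene). PCYT2 itself was not called in this comparison (log2 fold change -0.8, limma adjusted p = 0.115). At an unadjusted limma p under 0.05 there were 7 of the 30 (23.3%) and 16.7% of all tested genes: DPM1, PGAP1, PIGF, PIGK, PIGS, PIGT and PIGU. With the hairpins kept as separate groups in the fit and their mean set against shNT, 7 of the 30 (23.3%) were called, all higher: DPM1, PIGA, PIGF, PIGH, PIGS, PIGT and PIGU. In that fit 16.8% of all tested genes were called, 10.9% higher and 5.85% lower. In the 2-group fit the gene with the lowest p was PIGU, at a limma adjusted p of 0.189, with a log2 fold change of 0.29, beside 0.43 for PIGF (limma adjusted p = 0.204). All 4 knockdown libraries lay above both shNT libraries for 9 of the 30 (beside 20.7% of all tested genes), namely DPM1, PGAP1, PIGF, PIGH, PIGK, PIGN, PIGS, PIGT and PIGU, and below for DPM3 (3.33%, beside 9.48%).

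Genes that surround the pathway were described list by list, and nothing particular to a list is read from its counts. Beside the counts stand the shares of all tested genes, which were 16.5% higher and 10.1% lower with shPcyt2-1, and 7.69% higher and 4.74% lower with shPcyt2-2. With no filter on low values, some calls of the list genes named here other than PCYT2 held. With shPcyt2-1 they were those of ARV1, CD24, CD109, CNTN1, DPEP1, EFNA3, ETNK1, GFPT1, GPC1, GPC2, MELTF, SEMA7A and TMED5. With shPcyt2-2 only the call of FOLR1 held. Of 16 other GPI pathway genes (15 tested), 5 were higher with shPcyt2-1 and 2 with shPcyt2-2, and none was lower, with median log2 fold changes of 0.2 and 0.15. TMED5, a p24 family cargo receptor of the kind that carries GPI-anchored proteins out of the endoplasmic reticulum, rose with both hairpins, by 0.56 with shPcyt2-1 (limma adjusted p = 0.007), while shPcyt2-2 gave 0.4 (limma adjusted p = 0.0437). It was at 6.37 and 5.42 FPKM with shNT, 9.47 and 8.83 FPKM with shPcyt2-1 and 8.67 and 7.48 FPKM with shPcyt2-2. ARV1 (0.39, limma adjusted p = 0.0125), CLPTM1 (0.38, limma adjusted p = 0.0274), MPDU1 (0.26, limma adjusted p = 0.0285), which is needed for the use of dolichol phosphate mannose, and TMED2 (0.22, limma adjusted p = 0.0472) rose with shPcyt2-1, and TMED9 with shPcyt2-2 (0.24, limma adjusted p = 0.04). TMED2 and TMED9 lie outside the naming rule and were picked once their values had been seen, as were NUS1, SRD5A3, GNPNAT1, MSLN, RECK, LY6E and HYAL2 below. The same holds for CNTN1, CD109, GPC2, RGMB, PRNP, DPEP1, EFNA2, EFNA3, GPC1 and EFNA4 below. The rise of TMED5 with shPcyt2-1 was called under all 16 alternative settings, but that with shPcyt2-2 was lost without any 1 library but shNT replicate 1 (limma adjusted p between 0.0536 and 0.215). ARV1 was not called without shNT replicate 2 (limma adjusted p = 0.0626) or shPcyt2-1 replicate 1 (limma adjusted p = 0.106), nor CLPTM1 without shNT replicate 1 or shPcyt2-1 replicate 1 (limma adjusted p of 0.101 and 0.109), nor MPDU1 without any 1 library of shNT and shPcyt2-1 (limma adjusted p between 0.057 and 0.195). TMED2 was lost without any library but shNT replicate 1 (limma adjusted p between 0.0566 and 0.231), and TMED9 without any of the 6 (limma adjusted p between 0.068 and 0.142).

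Of 14 genes of mannose donor, amino sugar and dolichol supply, 4 were higher and 2 lower with shPcyt2-1 (26.7% of all tested genes were called either way), and 1 was lower with shPcyt2-2 (4.74% of all tested genes). GFPT1, the entry enzyme of the hexosamine pathway, rose by 0.52 with shPcyt2-1 (limma adjusted p = 0.00379), as did the dolichol pathway genes DOLPP1 (0.46, limma adjusted p = 0.0151), SRD5A3 (0.39, limma adjusted p = 0.046) and NUS1 (0.33, limma adjusted p = 0.0423). PMM1, a phosphomannomutase, fell (-0.41, limma adjusted p = 0.0163), as did GNPNAT1 of the hexosamine pathway (-0.34, limma adjusted p = 0.0202). GFPT1 was called under all 16 alternative settings. Without shPcyt2-1 replicate 1 the other 5 were not called (limma adjusted p between 0.0633 and 0.28), and each was also lost without at least 1 shNT library. UAP1, which makes the UDP-GlcNAc used in the first step of anchor synthesis, fell with shPcyt2-2 (-0.49, limma adjusted p = 0.0124), from 19.0 and 16.6 FPKM with shNT to 11.7 and 12.9 FPKM, a call lost without shPcyt2-2 replicate 1 (limma adjusted p = 0.101). Of 8 genes of PE synthesis, PCYT2 fell with both hairpins (-0.73 and -0.88, limma adjusted p of 0.00205 and 0.00261) and ETNK1, an ethanolamine kinase that acts upstream of it, rose by 0.5 with each of them (limma adjusted p of 0.00739 and 0.0149). CEPT1 (0.32, limma adjusted p = 0.0466) and PISD (0.24, limma adjusted p = 0.0495) rose with shPcyt2-1. PISD was lost without any 1 of the 6 libraries (limma adjusted p between 0.0565 and 0.295), CEPT1 without shNT replicate 2, either shPcyt2-1 library or shPcyt2-2 replicate 1 (limma adjusted p between 0.0506 and 0.224), and the rise of ETNK1 with shPcyt2-2 without shNT replicate 2 or shPcyt2-2 replicate 1 (limma adjusted p of 0.0765 and 0.11).

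Other proteins held by a GPI anchor were described in the same way. Of the 58 on the list, 53 were listed in the tables and 36 were abundant enough to be tested. With shPcyt2-1, 7 were higher and 6 lower (median log2 fold change -0.026), beside 16.5% and 10.1% of all tested genes. With shPcyt2-2, 5 were higher and 1 lower (median 0.12), beside 7.69% and 4.74%. SEMA7A, a semaphorin, was at 2.71 and 3.31 FPKM with shNT, 7.72 and 8.06 FPKM with shPcyt2-1 and 3.94 and 4.54 FPKM with shPcyt2-2, a log2 rise of 1.15 with shPcyt2-1 (limma adjusted p = 0.000576). MELTF, melanotransferrin, was at 11.8 and 14.4 FPKM with shNT and 6.35 and 7.35 FPKM with shPcyt2-1, and fell (-0.84, limma adjusted p = 0.00269). FOLR1, the folate receptor alpha, went from 10.6 and 10.9 FPKM with shNT to 21.8 and 21.5 FPKM with shPcyt2-2 (0.95, limma adjusted p = 0.000603) but was at 9.9 and 10.7 FPKM with shPcyt2-1. CD24 rose by 0.73 with shPcyt2-1 (limma adjusted p = 0.00212), while shPcyt2-2 gave 0.59 (limma adjusted p = 0.0102). The other calls with shPcyt2-2 were rises of RECK (0.46), MSLN (0.41) and LY6E (0.26) and a fall of HYAL2 (-0.28), with limma adjusted p between 0.0298 and 0.0494. With shPcyt2-1 the other rises were of CNTN1 (0.6), CD109 (0.46), GPC2 (0.36), RGMB (0.36) and PRNP (0.34). The other falls with shPcyt2-1 were of DPEP1 (-0.58), EFNA2 (-0.56), EFNA3 (-0.43), GPC1 (-0.42) and EFNA4 (-0.32). Their limma adjusted p lay between 0.00119 and 0.0297. DPEP1 and CNTN1 kept these calls under all 16 alternative settings, and the others did not. SEMA7A, MELTF and CD24 kept their calls with shPcyt2-1, and FOLR1 its call with shPcyt2-2, under all 16 alternative settings, whereas CD24 with shPcyt2-2 lost its call without shPcyt2-2 replicate 1 (limma adjusted p = 0.084), as did RECK, MSLN, LY6E and HYAL2 (limma adjusted p between 0.11 and 0.268), each of which was also lost without at least 1 other library. Between the hairpins, 9 of the 36 were higher and 3 lower with shPcyt2-2, beside 12.9% and 14.2% of all tested genes.

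**Figure D3:**
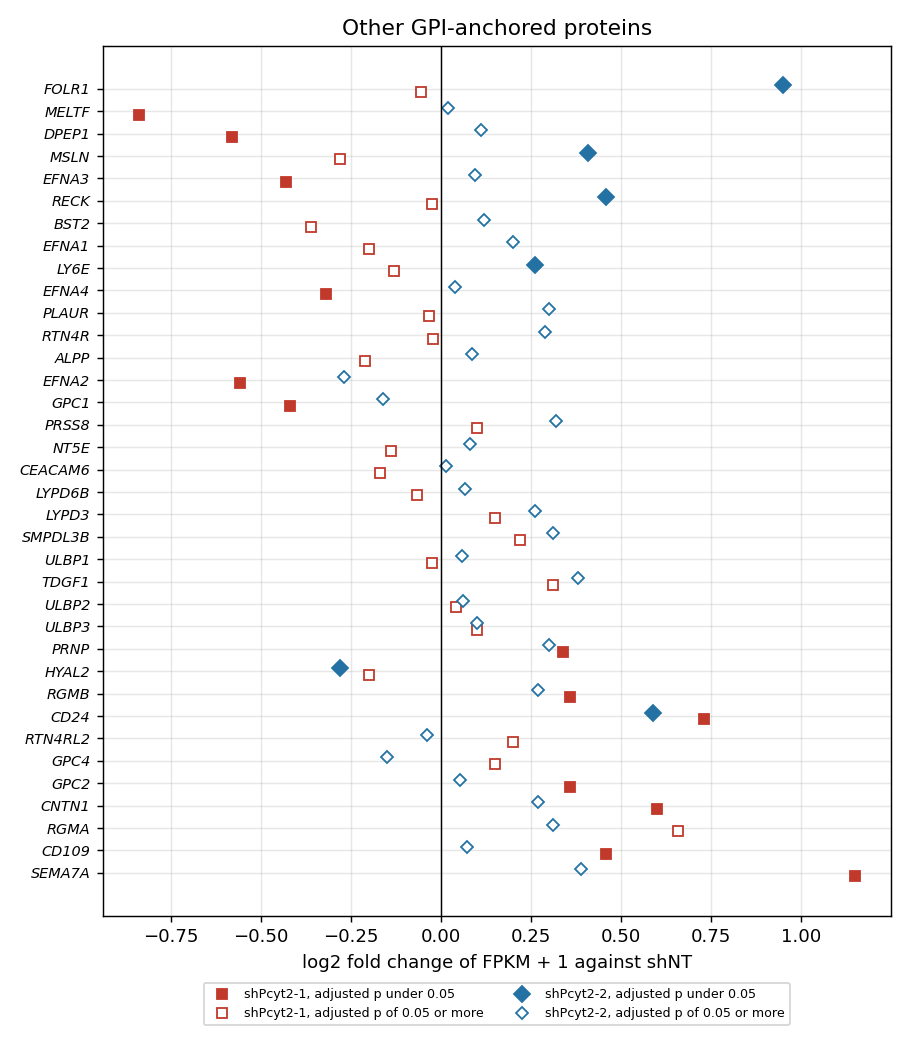
Log2 fold change of FPKM + 1 against shNT for 36 tested genes of other GPI-anchored proteins, with squares for shPcyt2-1 and diamonds for shPcyt2-2, filled where the limma adjusted p is under 0.05, sorted by the difference between the hairpins. SEMA7A (1.15) and MELTF (-0.84) mark the ends with shPcyt2-1, and FOLR1 (0.95) is the rightmost diamond.

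Of 6 complement regulators that lack a GPI anchor, CD46 and CLU were abundant enough to be tested. CD46, a transmembrane cofactor for complement cleavage, was at 60.7 and 53.2 FPKM with shNT, 59.3 and 58.0 FPKM with shPcyt2-1 and 92.1 and 77.9 FPKM with shPcyt2-2. It rose with shPcyt2-2 (0.57, limma adjusted p = 0.00872), as did CLU, clusterin (0.46, limma adjusted p = 0.0149), and neither was called with shPcyt2-1. Without shPcyt2-2 replicate 1 both calls were lost (limma adjusted p of 0.0833 and 0.114). The levels of CD46 were several times those of CD55 and CD59 in every library.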

How the data were processed

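RNA-Seq was carried out on 6 SW480 libraries, 2 for each hairpin. Libraries were made and sequenced by a service provider, and 2 library kits are named without saying which libraries they made. The labels name the builds GRCh38, GRCm38 and mm10; the aligner and use of strand are not given in the sources used here. The authors deposited 1 column of values per library, by Ensembl identifier and listing only values above 0, and the unit was inferred to be FPKM, since a library summed to between 396467 and 402612 (a TPM table of fewer genes cannot be told apart). Depth is unknown, so no count model was used.

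Identifiers that came more than once (115) were added up, and 999 groups sharing the same values were merged, which turned 21539 identifiers into 19746 genes. Genes with a mean of at least 0.5 FPKM were tested on log2(FPKM + 1) with limma 3.58.1 (R 4.3.3, mean-variance trend, Benjamini-Hochberg adjustment), all 3 groups sharing a fit; the pooled comparison used 2 groups. The procedure was tested on simulated data. Members and gene lists were chosen with earlier results of these data known. The naming rule covered PCYT2, all 30 members and, per list, up to 4 called genes with the largest fold change, or the 2 most abundant where none was called. Further called list genes were named outside this rule, once their values had been seen. Alternatives were the pseudocount, low-value filter, scaling, GC content and length, variance model, samples in the fit, replicate block, repeated rows and leaving out each library.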

Additional observations from a re-analysis of the deposited data

Results flagged for a closer look

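Between the hairpins, 5 of the 30 genes (16.7%) differed by a limma test of the difference itself, beside 27.1% of all tested genes. The log2 difference, shPcyt2-2 minus shPcyt2-1, was -0.43 for PIGA, -0.63 for PIGH, -0.45 for PGAP2 and -0.32 for DPM2, all lower with shPcyt2-2, and 0.54 for CD55, which was higher. PIGH and PGAP2 kept this call under all 16 alternative settings, and PIGA lost it without any 1 of the 4 knockdown libraries. A separate mark fell on PGAP1 in shPcyt2-2 replicate 2, at 1.2 FPKM, which lay apart from the other 3 knockdown libraries (1.56, 1.57 and 1.6 FPKM) by 0.883 of the range of the 4, above the limit of 0.829. It was the only mark among 31 such sets of 4 knockdown libraries, where chance alone marks about 5% of sets.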

How the results depend on the processing

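Depth is unknown, and 2 libraries a group limit every test. With shPcyt2-1 against shNT, 7 of the 30 genes and 1831 of all genes were called with no filter on low values. Correction for GC content and gene length turned PIGB to -0.069, PIGW to -0.098 and PIGY to -0.029, and median-ratio scaling, with or without the replicate block, turned PIGQ to -0.036 and GPAA1 to -0.068. With shPcyt2-2, 2 of the 30 (PIGS and PIGT) were called after correction for GC content and gene length (6.67%, beside 14.1% of all tested genes) and 1 (DPM3) with block and scaling (3.33%, beside 16.7%), and 124 of all genes were called with no filter and 1027 with no variance trend. The same correction turned PIGA to -0.0028, PIGM to -0.12, PIGN to -0.0083, PIGX to -0.017, PIGY to -0.052, MPPE1 to -0.016 and CD55 to -0.02, and PIGY was -0.53 at a pseudocount of 0.1 and -0.037 with median-ratio scaling, with or without the block. Between the hairpins, 8 of the 30 (26.7%) were called after that correction, beside 36.9% of all tested genes, and DPM3 turned to 0.0026 with median-ratio scaling, with or without the block. In the pooled comparison, the mean of both hairpins from the fit with 3 groups gave 7 of the 30, 2142 of all genes (16.8%) and PCYT2 at -0.8 with a limma adjusted p of 0.00334. Pooled calls over all genes were 0 at a pseudocount of 0.1, at a mean of at least 1 and with the block, with or without scaling, and 7 with no filter. Pooled values turned to -0.12 for PIGB, -0.021 for PIGG, 0.063 for PIGQ, -0.037 for PIGW and -0.041 for PIGY after correction for GC content and gene length, to -0.028 for PIGG, -0.034 for PIGV, -0.021 for GPAA1 and -0.042 for PGAP3 with median-ratio scaling, with or without the block, and to -0.11 for PIGY at a pseudocount of 0.1. The cause of these changes was not tested.

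Leaving out single libraries gave, with shPcyt2-1, 4 to 14 of the 30 and 1160 to 3355 of all genes, and log2 fold changes of -0.22 to 0.019 for PIGM, -0.14 to 0.22 for PIGQ, -0.077 to 0.22 for PIGV, -0.18 to 0.06 for PIGX, -0.48 to 0.68 for PIGY, -0.17 to 0.19 for GPAA1 and -0.00096 to 0.17 for PGAP3. With shPcyt2-2 it gave 0 to 1 of the 30 (DPM1, without shNT replicate 1) and 125 to 1892 of all genes, and -0.083 to 0.059 for PIGB, -0.12 to 0.00045 for PIGG, -0.041 to 0.18 for PIGM, -0.095 to 0.26 for PIGO, -0.078 to 0.065 for PIGP, -0.38 to 0.042 for PIGQ, -0.15 to 0.067 for PIGV, -1.07 to 1.09 for PIGY, -0.099 to 0.26 for GPAA1, -0.15 to 0.02 for PGAP3 and -0.025 to 0.094 for MPPE1. Between the hairpins it gave 2 to 6 of the 30 and 1674 to 3783 of all genes, and -0.3 to 0.046 for PIGC, -0.17 to 0.017 for PIGK, -0.0025 to 0.28 for PIGP, -0.42 to 0.0041 for PIGQ, -0.26 to 0.035 for PIGV, -0.0013 to 0.24 for PIGX, -1.17 to 0.99 for PIGY, -0.023 to 0.16 for GPAA1 and -0.11 to 0.065 for DPM3. Pooled, it gave 0 to 1 of all genes, and -0.0089 to 0.11 for PIGB, -0.0097 to 0.079 for PIGG, -0.11 to 0.041 for PIGL, -0.081 to 0.053 for PIGM, -0.25 to 0.12 for PIGQ, -0.054 to 0.07 for PIGV, -0.045 to 0.059 for PIGX, -0.53 to 0.63 for PIGY, -0.13 to 0.22 for GPAA1 and -0.074 to 0.093 for PGAP3. PIGY, inside the exons of PYURF, had the widest range in each comparison.

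Deviations of same-numbered libraries from their group means correlated by 0.0027, 0.0619 and 0.191 over the 3 pairs of groups, so the numbers were not taken as pairing. With the replicate block, 14 of the 30 (46.7%) were called with shPcyt2-1, 0 with shPcyt2-2 and 5 (16.7%) between the hairpins, beside 30.4%, 15.9% and 30.3% of all tested genes. The called genes of the fixed lists were recomputed under the same alternatives, a choice made after seeing the data. Median-ratio scaling ended the calls of CEPT1, CLPTM1, MPDU1, NUS1, PISD, RGMB, SRD5A3 and TMED2 with shPcyt2-1 (limma adjusted p between 0.0531 and 0.188). It ended those of LY6E, MSLN and TMED9 with shPcyt2-2 (limma adjusted p between 0.0652 and 0.146). GC content and length correction ended those of CD109, CEPT1, EFNA2, NUS1, SRD5A3 and TMED2 with shPcyt2-1 (limma adjusted p up to 0.326). It ended those of RECK and TMED5 with shPcyt2-2 (limma adjusted p of 0.0826 and 0.107).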
